A study of Mus musculus with 4 samples.

Results

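Wnt ligands and target genes of beta-catenin were read across 4 mouse oral cancer cell lines. The 10 genes, chosen by name with earlier results of these data known, were 6 ligands (Wnt4, Wnt5a, Wnt7a, Wnt7b, Wnt10a and Wnt10b) and 4 genes on the receiving side of the pathway (Axin2, Lef1, Tcf7 and Nkd1). All 10 had an entry among the 34685 gene identifiers of the table, and 8 of the 10 reached the abundance needed for a comparison. The lines were grown from tumors that the carcinogen DMBA, applied with a cotton swab to the buccal mucosa, had raised in C57BL/6 mice. DMBA was given for longer in mouse 11 than in mouse 3. Before the lines were established, the cultured cells were passed under the skin of C57BL/6 mice. They were then isolated again from the tumors that formed, and fibroblasts were separated from them with a kit. AOC3 and AOC11 came from the primary oral tumors of mouse 3 and mouse 11, and AOC3-LN and AOC11-LN from metastatic lymph node tumors under the same numbers. All 4 lines had formed tumors on return to C57BL/6 mice. RNA of cultured cells was sequenced with 1 library per line, so every value below is a single measurement of that line, and a difference between mice is a difference between 1 animal and another.

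Wnt proteins are secreted lipid-modified signals that bind Frizzled receptors together with the co-receptors Lrp5 and Lrp6. In the canonical branch this binding keeps the destruction complex of Axin, Apc and the kinase Gsk3 from marking beta-catenin for degradation, and beta-catenin then enters the nucleus and works with TCF/LEF factors on genes such as Axin2. In stratified epithelia of the skin and mouth, Wnt ligands are made by the keratinocytes themselves and take part in basal cell renewal and in hair follicle, tooth and taste papilla formation.

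Abundance was given in FPKM, the fragments assigned to a gene per kilobase of transcript, scaled to the mapped fragments of the library, so that levels can be set side by side between genes. Differences between lines were taken on log2(FPKM + 1) values brought to a common distribution (quantile normalization), and are called normalized log2 differences below. They understate the change of genes near or under 1 FPKM, which limits what is said of Wnt4, Wnt5a and Lef1. The comparison took in the 14165 genes that reached 1 FPKM in any line, and a difference above 1 or below -1 was called. The libraries were scaled to an estimated 28300000 to 33800000 fragments. Epithelial markers such as Cdh1, Epcam, Krt5 and Krt14 were present in all lines (7 or 8 of 8 at 1 FPKM or more, summed level 3186 to 3729 FPKM), and fibroblast markers were not (0 of 8, summed level 0.246 to 1.17 FPKM). The sum hides a difference in Krt5, at 499 and 275 FPKM in AOC3 and AOC3-LN against 4.99 and 17.0 FPKM in AOC11 and AOC11-LN. Its normalized log2 difference between the mice was 5.19, while that of Krt14 was -0.69. Of 7 macrophage markers, the 2 that reached 1 FPKM in any line differed between the mice in opposite directions. Cd68 was above 1 FPKM in all lines and higher in the AOC3 lines, with a normalized log2 difference of 1.01. Csf1r was at 0.995 and 0.435 FPKM in the AOC3 lines against 20.8 and 6.01 FPKM in the AOC11 lines. The normalized log2 difference of Csf1r was -2.81. The defining markers Adgre1 and Ptprc were listed at 0 in all lines and at 0.0640 FPKM or less, and the 7 summed to 10.2 to 27.0 FPKM. Trp63, which marks basal squamous cells, was at 0.0848 FPKM in AOC11 and 0.841 FPKM in AOC11-LN.

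Wnt7a, Wnt7b and Wnt10a were among the most abundant ligand transcripts in every line, and Wnt10b was in AOC3 and AOC3-LN. The 6 ligands together supplied 97.2% (AOC3), 98.4% (AOC3-LN), 91.4% (AOC11) and 86.6% (AOC11-LN) of the summed FPKM of all 19 Wnt genes. The summed level was 197 and 123 FPKM in AOC3 and AOC3-LN, and 237 and 181 FPKM in AOC11 and AOC11-LN. In each mouse the lymph node line thus carried less ligand transcript than the primary line. The number of Wnt genes at 1 FPKM or more was 7 in AOC3, AOC11 and AOC11-LN and 4 in AOC3-LN.

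**Figure D1:**
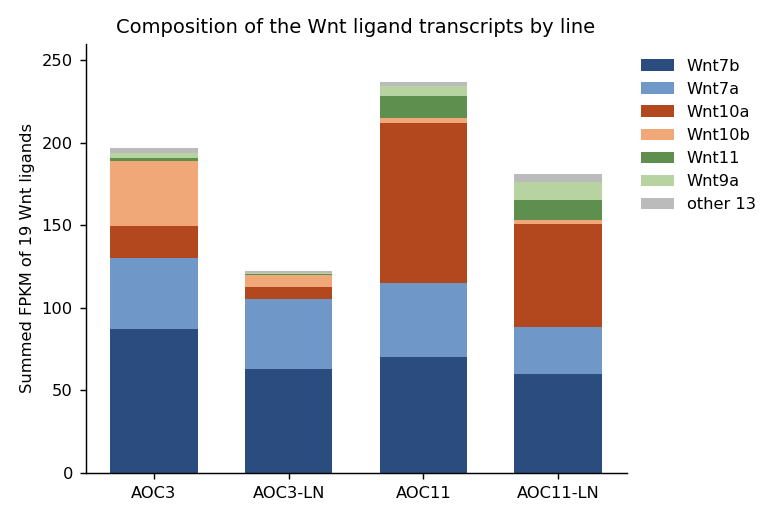
Stacked bars give the summed FPKM of the 19 Wnt genes in each of the 4 lines, divided by ligand, from 1 library per line. Wnt7a and Wnt7b fill a block of 88.5 to 130 FPKM in every bar, while the Wnt10a block is large in AOC11 (96.9 FPKM) and AOC11-LN (62.1 FPKM) and the Wnt10b block is large in AOC3 (39.2 FPKM).

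Wnt7b (chr15:85535437-85582473, minus strand, build mm10), a ligand of epithelia that acts through beta-catenin in several tissues, stood at 87.2 and 63.0 FPKM in AOC3 and AOC3-LN, and 70.4 and 59.7 FPKM in AOC11 and AOC11-LN. It ranked above 91.7%, 87.6%, 88.7% and 86.8% of the 14165 genes in these lines. The values of the 2 mice overlapped, and the normalized log2 difference of the AOC3 lines over the AOC11 lines was 0.24 ± 0.23 (SE, limma adjusted p = 0.606). Its start overlaps the antisense gene AU022754, which was at 0.448 to 0.714 FPKM. The library kit keeps strand, but mapping and counting were run with default parameters, under which these tools treat reads as unstranded, so reads from the overlap cannot be assigned by strand.

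Wnt7a (chr6:91363981-91411363, minus strand), its closest relative, was flat in 3 lines, at 43.2 FPKM in AOC3, 42.5 in AOC3-LN and 44.8 in AOC11, and stood at 28.7 FPKM in AOC11-LN. The groups overlapped here too, with a normalized log2 difference between the mice of 0.30 ± 0.25 (SE, limma adjusted p = 0.552). The primary lines differed by 0.00 and the lymph node lines by 0.59 on that scale. Wnt7b exceeded Wnt7a 2.02-fold in AOC3, 1.48-fold in AOC3-LN, 1.57-fold in AOC11 and 2.08-fold in AOC11-LN. Wnt7 ligands are recognized by the receptor pair Adgra2 (Gpr124) and Reck. Adgra2 was at 15.7 FPKM in AOC3 and 38.8 in AOC3-LN against 0.762 in AOC11 and 0.601 in AOC11-LN, whereas its partner Reck was listed at 0 in both AOC3 lines and at 0.0208 and 0.144 FPKM in the AOC11 lines.

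Wnt10a (chr1:74791516-74804179, plus strand), a ligand whose loss impairs teeth, hair and tongue papillae, was higher in both lines of mouse 11. Its level was 96.9 FPKM in AOC11 and 62.1 FPKM in AOC11-LN, against 19.6 FPKM in AOC3 and 7.45 FPKM in the lymph node line of mouse 3. The groups did not overlap, and the mean of the AOC11 lines was 5.89 times that of the AOC3 lines. The normalized log2 difference of the AOC3 lines over the AOC11 lines was -2.52 ± 0.46 (SE), past the threshold but with a limma adjusted p of 0.112 over all genes. It was -2.22 between the primary lines and -2.81 between the lymph node lines. Wnt6, which lies 6.19 kb from Wnt10a on the same chromosome, was at 0.201 FPKM or less in all lines.

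Wnt10b (chr15:98770712-98778150, minus strand), the paralog of Wnt10a and an activator of beta-catenin signaling in hair follicle and mammary epithelium, had the opposite order. It was at 39.2 and 6.82 FPKM in AOC3 and AOC3-LN, and 2.9998 and 2.78 FPKM in AOC11 and AOC11-LN. AOC3 stood 5.74 times above its own lymph node line and 13.1 times above AOC11, and the other 3 lines lay within a few FPKM of each other. The groups did not overlap, and the normalized log2 difference between the mice was 2.28 ± 0.76 (SE, limma adjusted p = 0.224). This size rested on which AOC3 line was used, since it was 1.13 without AOC3 and 3.43 without AOC3-LN. Wnt1, 11.7 kb away, was at 0.214 FPKM in AOC3 and at 0.0476 FPKM or less in the other lines.

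Wnt10b exceeded Wnt10a in AOC3, the pair was near balance in AOC3-LN, and Wnt10a far exceeded Wnt10b in both lines of mouse 11. The ratio of Wnt10a to Wnt10b in FPKM was 0.500 and 1.09 in AOC3 and AOC3-LN, and 32.3 and 22.3 in AOC11 and AOC11-LN. The pair together made up 29.9% of ligand transcript in AOC3 and 11.6% in AOC3-LN, against 42.1% in AOC11 and 35.9% in AOC11-LN. Wnt7a and Wnt7b made up 66.3%, 86.1%, 48.6% and 48.9% in the same order.

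Wnt4 (chr4:137277489-137299726, plus strand), known for roles in kidney and female reproductive tract formation, was at 0.489 and 0.141 FPKM in AOC3 and AOC3-LN, and 1.51 and 3.08 FPKM in AOC11 and AOC11-LN. Only the lines of mouse 11 brought it past the abundance filter, and the groups did not overlap. The normalized log2 difference of the AOC3 lines over the AOC11 lines was -1.27 ± 0.32 (SE, limma adjusted p = 0.161). With a pseudocount of 0.1 in place of 1 it was -2.55. An estimated 66, 16, 204 and 403 fragments lay behind the 4 values.

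Wnt5a (chr14:28504750-28527448, plus strand), the leading ligand of the branch that does not use beta-catenin, had its order reversed relative to Wnt4, with 1.63 and 0.723 FPKM in AOC3 and AOC3-LN, and 0.0610 and 0.297 FPKM in AOC11 and AOC11-LN. It passed the filter only through AOC3. The groups did not overlap, and the normalized log2 difference was 0.91 ± 0.32 (SE, limma adjusted p = 0.240), short of the threshold. It was 1.15 without AOC3-LN, 1.01 without AOC11-LN and 2.37 with a pseudocount of 0.1, each past it.

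**Figure D2:**
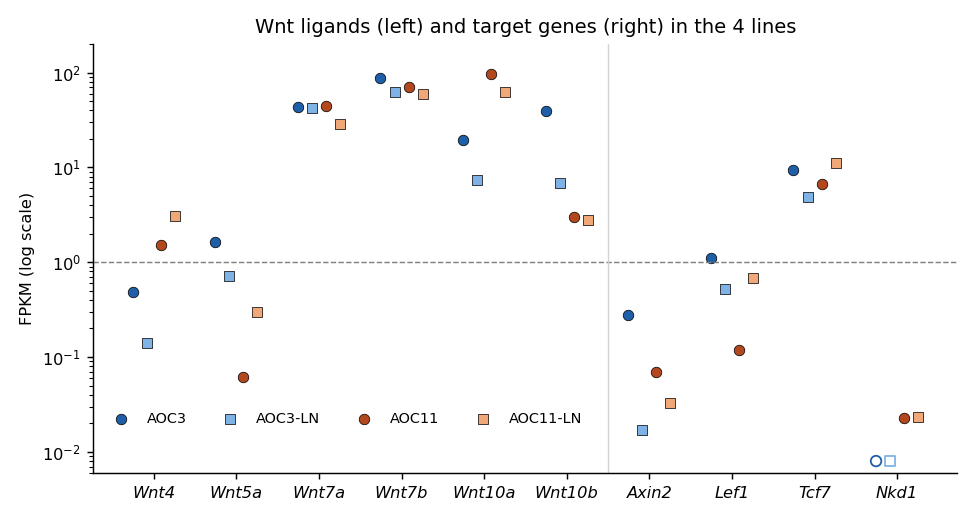
FPKM of the 10 genes on a log axis in AOC3 and AOC11 (circles) and in AOC3-LN and AOC11-LN (squares), 1 library per point, with the dashed line at 1 FPKM and open symbols at the bottom for values listed at 0. Wnt7a and Wnt7b lie close together in all lines (28.7 to 87.2 FPKM), Wnt10a and Wnt10b separate the mice in opposite directions, and Axin2 and Nkd1 stay below 1 FPKM in every line.

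Of the genes on the receiving side, Tcf7 (chr11:52252371-52283014, minus strand), which encodes the nuclear factor TCF1, was the most abundant. It was at 9.49 and 4.85 FPKM in AOC3 and AOC3-LN, and 6.61 and 10.99 FPKM in AOC11 and AOC11-LN. The mice overlapped, and the normalized log2 difference was -0.21 ± 0.36 (SE, limma adjusted p = 0.772). Its order differed by site, with AOC3 above AOC11 by 0.46 and AOC3-LN below AOC11-LN by 0.89 on the log2 scale. Transcripts that overlap it on the genome (A630014C17Rik and Gm26551) were at 0.0853 FPKM or less.

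Lef1 (chr3:131110471-131224356, plus strand), a second TCF/LEF factor and itself a target of beta-catenin, was low. It was at 1.12 and 0.519 FPKM in AOC3 and AOC3-LN, and 0.118 and 0.675 FPKM in AOC11 and AOC11-LN, with about 125, 49, 13 and 73 fragments behind these values. In FPKM the groups overlapped, because AOC11-LN lay above AOC3-LN. After normalization the groups were apart by 0.06, and the difference between the mice was 0.45 ± 0.32 (SE, limma adjusted p = 0.493).

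Lef1 and Tcf7 are also strongly expressed in T cells, so T cell markers were read beside them. Cd3e, Cd4, Cd8a and Cd2 were listed at 0 in all lines and Cd3d did not exceed 0.0422 FPKM. Cd5, the only 1 of 8 T cell markers at 1 FPKM or more, was at 0.217 and 0.0498 FPKM in AOC3 and AOC3-LN, and 3.47 and 1.47 FPKM in AOC11 and AOC11-LN. The 8 markers summed to 0.221 and 0.0591 FPKM in the AOC3 lines and to 3.48 and 1.63 FPKM in the AOC11 lines.

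Axin2 (chr11:108920349-108950783, plus strand), a negative regulator of the pathway and its most widely used target gene, was below 1 FPKM everywhere and was not compared. It was at 0.277 and 0.0172 FPKM in AOC3 and AOC3-LN, and 0.0692 and 0.0326 FPKM in AOC11 and AOC11-LN. These values rest on about 38, 2, 10 and 4 fragments, with exact Poisson 95% intervals of 26.9 to 52.2, 0.242 to 7.22, 4.80 to 18.4 and 1.09 to 10.2. AOC3 exceeded AOC11 4.01-fold (interval 1.85 to 8.53) and AOC11-LN 8.49-fold (3.29 to 35.3). AOC3 exceeded AOC3-LN 16.1-fold, with an interval of 4.13 to 137. The intervals cover counting error within these libraries only, and the fragment numbers assume the longest coding transcript.

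Nkd1 (chr8:88521354-88594884, plus strand), an inhibitor that binds Dishevelled and a target of the pathway in many tissues, was listed at 0 in AOC3 and AOC3-LN and at 0.0229 FPKM in AOC11 and 0.0234 FPKM in AOC11-LN, about 3 fragments each. A count of 0 allows up to 3 fragments, or 0.0227 FPKM in AOC3 and 0.0270 FPKM in AOC3-LN. No difference was detectable at this depth.

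Sequences just upstream of 2 of these genes are shown, Axin2 as the standard target gene and Wnt10b as the ligand with the widest range of normalized log2 values. Each window runs from 250 bases before to 50 bases after the start of a RefSeq transcript, read 5′ to 3′ on the gene's strand (build GRCm38.p6). The first is at chr11:108920099-108920398 (plus strand) and the second at chr15:98778101-98778400 (minus strand).
Axin2: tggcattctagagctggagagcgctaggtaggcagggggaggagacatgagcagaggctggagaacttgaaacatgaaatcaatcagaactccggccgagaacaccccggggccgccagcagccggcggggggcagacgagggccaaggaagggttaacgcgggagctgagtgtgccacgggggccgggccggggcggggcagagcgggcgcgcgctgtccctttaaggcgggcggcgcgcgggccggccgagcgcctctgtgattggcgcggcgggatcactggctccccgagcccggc
Wnt10b: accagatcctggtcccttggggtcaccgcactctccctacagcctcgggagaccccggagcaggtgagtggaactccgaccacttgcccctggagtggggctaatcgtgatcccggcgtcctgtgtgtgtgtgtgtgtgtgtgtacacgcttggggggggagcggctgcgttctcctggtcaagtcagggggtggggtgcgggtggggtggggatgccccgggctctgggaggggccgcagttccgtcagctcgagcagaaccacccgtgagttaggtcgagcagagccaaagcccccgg
The Axin2 window has 70.0% G and C and 31 CpG pairs, and the Wnt10b window has 66.3% and 18, against medians of 52.7% and 7 over all 32817 windows. The TCF/LEF recognition sequences CTTTGAT and CTTTGAA were searched on both strands, and neither is in these windows. The table held 11 windows for 7 of the 10 genes, none of them with a match, while 8.65% of all windows had at least 1. Wnt5a, Wnt7b and Wnt10a had no entry. A missing match says only that these letters are absent from this stretch.

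Between the lines of mouse 3 and mouse 11, 3 of the 8 genes compared were past the threshold, with Wnt10b higher in the AOC3 lines and Wnt4 and Wnt10a higher in the AOC11 lines. Of all genes compared, 11.1% were past it. Wnt4, Wnt5a and Lef1 entered only through the lines in which they were high, so the count of 3 is a description and not support. Of the 5 genes at 1 FPKM or more in every line, Wnt10a and Wnt10b were past the threshold. The share of all genes under that stricter filter was not counted, so the 11.1% is no background for it. The median normalized log2 difference of the 8 genes was 0.27, against 0.01 for all genes. For 5 of the 8, both lines of a mouse lay above both lines of the other after normalization, a pattern that 53.1% of all genes had. The 5 include Wnt4, Wnt5a and Lef1. limma was fitted with both lines of a mouse treated as its replicates, and its p-values therefore measure only the spread between those lines. After Benjamini-Hochberg adjustment it called 0 of the 8 genes at 0.05, where 0.205% of all genes were called. At an unadjusted p of 0.05 it called 4 of the 8, and 18.7% of all genes. Refitted to protein-coding genes alone, of which 2.25% were called, it called Wnt10a (limma adjusted p = 0.0471). Over the alternatives that kept every line, its limma adjusted p ranged from 0.0471 to 0.337.

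**Figure D3:**
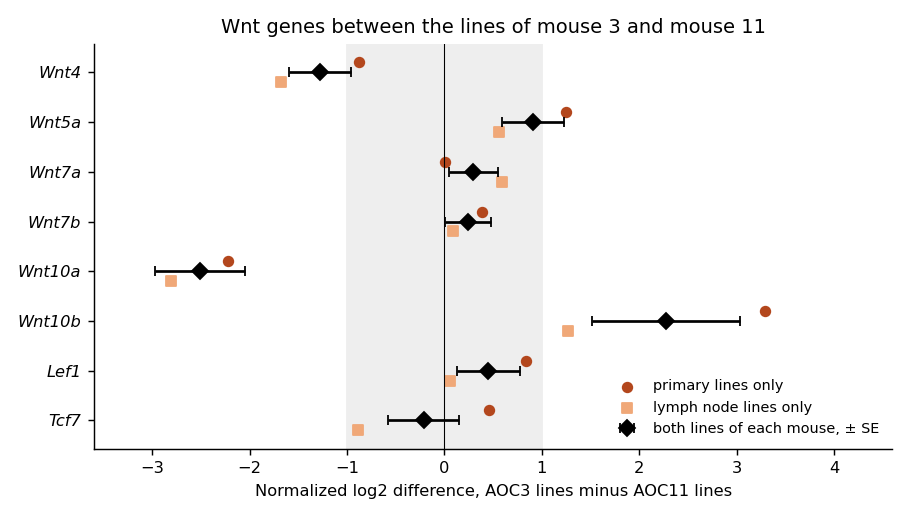
Normalized log2 difference of the AOC3 lines minus the AOC11 lines for the 8 genes compared, as the mean of both lines with its limma standard error (diamonds) and for the primary lines (circles) and lymph node lines (squares) alone, with the range from -1 to 1 shaded. Wnt10a (-2.52) and Wnt4 (-1.27) lie to the left of the shading and Wnt10b (2.28) to the right, and the 2 sites of Tcf7 fall on opposite sides of 0.

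Between AOC3-LN and AOC3 all 8 genes had negative differences, as did 6531 of all 14165 genes, with a median of -0.50 against 0.02 for all genes. Past the threshold were 2 of the 8, Wnt10b at -2.30 and Wnt10a at -1.21, where 5.53% of all genes were. Tcf7 followed at -0.73, Wnt7b at -0.51, Wnt5a at -0.49, Lef1 at -0.37, Wnt4 at -0.33 and Wnt7a at -0.02. There is 1 library on each side, so these differences have no replicate check within the mouse.

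Between AOC11-LN and AOC11 none of the 8 genes was past the threshold, where 8.11% of all genes were. Tcf7 (0.62), Wnt4 (0.47), Lef1 (0.42) and Wnt5a (0.20) were higher in AOC11-LN, and Wnt10a (-0.63), Wnt7a (-0.61), Wnt10b (-0.28) and Wnt7b (-0.22) were lower. In FPKM the low genes differed by more than these values show. Lef1 was 5.72 times as high in AOC11-LN as in AOC11 (counting interval 3.20 to 11.4) and Wnt5a 4.87 times (2.72 to 9.45), while in mouse 3 they were 2.16 times (1.53 to 3.05) and 2.25 times (1.85 to 2.75) as high in AOC3 as in AOC3-LN.

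Both mice also entered 1 limma fit with mouse and site as terms, which pairs each lymph node line with its primary line and leaves 1 residual degree of freedom per gene. With Benjamini-Hochberg adjustment it called 0 of the 8 genes, where 0.0141% of all genes were called. At an unadjusted p of 0.05 it called 1 of the 8, Wnt10a, and 2.86% of all genes. Wnt10a differed by -0.92 ± 0.25 (SE, limma adjusted p = 0.999), lower in the lymph node line of each mouse. Wnt10b differed by -1.29 ± 0.53 (SE, limma adjusted p = 0.999), which came mostly from mouse 3 (-2.30). In mouse 11 it was -0.28, and the counting intervals of AOC11 (226 to 289 fragments) and AOC11-LN (201 to 262) overlapped.

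**Figure D4:**
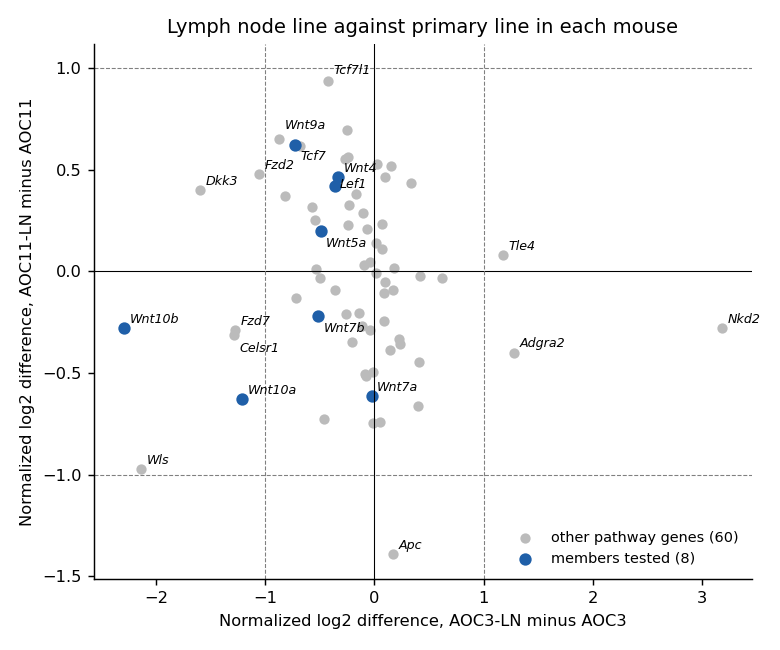
Normalized log2 difference of the lymph node line minus the primary line in mouse 3 (horizontal) against mouse 11 (vertical) for the 8 genes (blue) and 60 other pathway genes (grey), 1 library per line, with dashed lines at the threshold of 1 in each direction. All 8 blue points lie left of 0, led by Wnt10b at -2.30, and 4 of them (Tcf7, Wnt4, Lef1 and Wnt5a) lie above 0 on the vertical axis.

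The wider pathway was read through lists holding 108 further genes, 60 of which passed the filter. Of these 60, 12 were past the threshold between the mice, 8 of them higher in mouse 11 and 4 in mouse 3, where 11.1% of all genes were past it. Adgra2 entered only through the AOC3 lines, and Fzd5 and Tcf7l1 only through the AOC11 lines, in which they were high. The count and its split are therefore a description and not support. With the 8 genes above included, the split was 5 higher in mouse 3 and 10 in mouse 11, and without AOC3-LN it was 8 and 7. Among the ligands, Wnt11 was at 1.94 FPKM in AOC3 and 0.657 in AOC3-LN against 13.4 in AOC11 and 12.2 in AOC11-LN, a normalized log2 difference of -2.59 ± 0.32 (SE, limma adjusted p = 0.0785). Wnt9a, at 2.83 and 0.915 FPKM against 6.22 and 10.5, differed by -1.70. Both had the direction of Wnt4 and Wnt10a. The remaining Wnt genes did not exceed 0.519 FPKM.

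Ligand secretion depends on Porcn, which attaches the lipid, and on Wls, which carries the ligand to the surface. Wls was at 20.7 and 3.58 FPKM in AOC3 and AOC3-LN, and 30.3 and 14.8 FPKM in AOC11 and AOC11-LN, so that in each mouse it was lower in the lymph node line, with normalized log2 differences of -2.14 in mouse 3 and -0.97 in mouse 11. Between the mice Wls differed by -1.05 ± 0.77 (SE, limma adjusted p = 0.498). The groups overlapped, and the difference was -0.47 between the primary lines and -1.63 between the lymph node lines. Porcn stayed between 10.02 and 16.9 FPKM.

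Of 18 Frizzled receptors and co-receptors, 11 passed the filter, and 4 were called between the mice (11.1% of all genes were). Adgra2 was higher in the AOC3 lines, by 3.95 ± 0.48 (SE, limma adjusted p = 0.0740). Fzd7, a receptor and a target gene, was at 2.80 and 0.468 FPKM in AOC3 and AOC3-LN and at 9.14 and 7.36 in AOC11 and AOC11-LN, a difference of -1.91. Fzd2 differed by -1.32 and Fzd5 by -1.02 between the mice. Lrp5 was between 37.3 and 41.9 FPKM and Lrp6 between 10.8 and 15.1 FPKM.

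Among R-spondins, their Lgr receptors and the receptor-removing ligases Znrf3 and Rnf43, 4 of 9 passed the filter. Of these, Lgr6 was called between the mice, where 11.1% of all genes were. It was at 14.6 FPKM in AOC3 and 22.2 in AOC3-LN against 4.89 in AOC11 and 5.16 in AOC11-LN, a difference of 1.73 (limma adjusted p = 0.0965). The 4 R-spondins did not exceed 0.107 FPKM. Of 14 secreted inhibitors only Dkk3, a divergent Dickkopf relative, reached 1 FPKM, with 2.52 and 0.121 FPKM in AOC3 and AOC3-LN, and 0.0837 and 0.577 FPKM in AOC11 and AOC11-LN. A further 6 were listed at 0 in all lines.

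In the cytoplasmic part no gene was called on the mean of both lines of each mouse. Of 18 genes for Dishevelled and the destruction complex, 17 passed the filter and 0 were past the threshold, where 11.1% of all genes were. Axin1 was at 24.4 to 31.9 FPKM and Gsk3b at 12.6 to 18.9 FPKM. Past the threshold between sites were Nkd2, the relative of Nkd1, higher in AOC3-LN (11.9 FPKM) than in AOC3 (0.529 FPKM, difference 3.19), and Apc, at 12.1 FPKM in AOC11 and 4.26 in AOC11-LN (-1.39). Nkd2 was at 1.63 FPKM in AOC11 and 1.62 in AOC11-LN. Between the lymph node lines alone, AOC3-LN stood above AOC11-LN by 2.56 for Nkd2 and 1.48 for Apc. Apc was the only gene of the pathway lists called between AOC11-LN and AOC11, where 8.11% of all genes were.

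Ctnnb1, which encodes beta-catenin, was at 251 and 232 FPKM in AOC3 and AOC3-LN, and 160 and 139 FPKM in AOC11 and AOC11-LN, a normalized log2 difference of 0.69 (limma adjusted p = 0.163). Among its nuclear partners, Tcf7l1, a TCF factor that mostly represses, was at 0.579 FPKM in AOC3 and 0.135 in AOC3-LN against 6.93 in AOC11 and 14.5 in AOC11-LN, a difference of -3.03 (limma adjusted p = 0.0811). Tle3, a Groucho co-repressor, was at 37.4 and 39.4 FPKM in the AOC3 lines against 12.4 and 17.5 in the AOC11 lines, a difference of 1.37 (limma adjusted p = 0.0991). Tle4 was called in AOC3-LN over AOC3 (1.18).

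The 4 TCF/LEF genes summed to 15.5 and 7.86 FPKM in AOC3 and AOC3-LN, and 15.3 and 29.0 FPKM in AOC11 and AOC11-LN. Tcf7 supplied 61.1% and 61.7% of this sum in the AOC3 lines and 43.1% and 37.9% in the AOC11 lines. Tcf7l1 supplied 3.73% and 1.71% against 45.2% and 50.1%. The summed levels of the primary lines were thus nearly equal, with a different make-up.

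Of 18 other genes known as beta-catenin targets, 7 passed the filter and 1, Fzd7, was called between the mice (11.1% of all genes were). Ccnd1 (219 to 318 FPKM), Myc (94.9 to 164 FPKM) and Cd44 (297 to 542 FPKM), which answer to many other signals, were abundant in every line. Targets more specific to the pathway were mixed. Znrf3 was at 3.38 to 5.66 FPKM in every line, Nkd2 reached 11.9 FPKM and Rnf43 2.04 FPKM, while Apcdd1 reached at most 0.377 FPKM, Notum 0.146 FPKM and Lgr5 0.134 FPKM. In the list for planar cell polarity, the Wnt-linked system that orients cells in a sheet, 2 of 9 genes were called (11.1% of all genes were), Celsr1 at -1.28 and Prickle3 at 1.03. Celsr1 was also lower in AOC3-LN than in AOC3, with a difference of -1.29.

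The genes whose 4 values most resembled those of Wnt10a, by the root mean square difference of centred log2 values among 11380 protein-coding genes, were Tgm1 (0.16) and AA467197 (0.21). Tgm1 was at 2.79, 0.918, 20.5 and 10.6 FPKM in AOC3, AOC3-LN, AOC11 and AOC11-LN. For Wnt10b they were Cd34 (0.23) and Sprr1b (0.26). Sprr1b was at 20.5, 5.44, 2.06 and 2.07 FPKM in the same order of lines. Cd34, a surface sialomucin found on hair follicle stem cells among others, was at 16.6 and 1.23 FPKM in AOC3 and AOC3-LN, and 0.303 and 0.454 FPKM in AOC11 and AOC11-LN. With 4 values per gene many genes can resemble each other, and the likeness is a description only.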

How the data were processed

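The authors prepared stranded mRNA libraries, trimmed the paired reads with Trim Galore, mapped them to mm10 with TopHat2, and deposited gene abundances that Cufflinks estimated in FPKM on GENCODE M21 with default parameters. No column was left unused (0), and no counts were given. Gene names and positions come from GENCODE M21 and promoter windows from RefSeq. The genes, lists and tests were chosen with earlier results of these data known.

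A pseudocount of 1 was added to each FPKM value, logs were taken to base 2, and the 4 columns were quantile-normalized on all 34721 entries. A gene entered a comparison if any line reached 1 FPKM, and differences above 1 or below -1 were called. limma 3.58.1 in R 4.3.3 (lmFit, eBayes with trend, Benjamini-Hochberg) was fitted to the 4 lines across all 14165 genes. On simulated lines for the same comparison it recovered 200 of 200 changed genes with 5 false calls among 13289 genes. The simulated spread was set by hand and equal for every gene, and only genes of higher abundance were changed. It lacked the wider spread of genes such as Wnt10b (SE 0.76), so it checks the code and does not measure power in these lines. A comparison of a lymph node line with a primary line has 1 library per side and no test. Over both mice, site was tested in a limma fit with mouse and site as terms, added after seeing the data, where the pairing comes from the mouse number in the line names.

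The fragments behind a value were estimated from the steps of low FPKM values in 9528 genes with 1 transcript. Between 64.3% and 68.5% of low values fell within 0.1 of a whole multiple, against 20% by chance, so fragment numbers are approximate. Their exact Poisson intervals cover counting error only.

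All 10 genes are named. From each list, genes past the threshold between the mice (at most the 4 largest) and the largest in each direction between sites are named, with the 2 protein-coding genes most like any of the 10 that spanned over 2 log2 units. Pathway parts not called (such as Lrp5, Axin1, Gsk3b, Ctnnb1, Myc) were named after their values were seen. Python 3.11.15, pandas 2.3.3, numpy 2.4.6 and scipy 1.17.1 were used. Alternatives were another pseudocount, scaling, filter and threshold, protein-coding genes only, and leaving out each line.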

Additional observations from a re-analysis of the deposited data

Results flagged for a closer look

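Several genes differed in opposite directions from primary to lymph node line in the 2 mice, by more than 1.5-fold in FPKM in each. This was so for 10 of the 68 pathway genes (14.7%) and for 4 of the 8 ligand and target genes compared, against 8.04% of all genes. All 10 were lower in AOC3-LN than in AOC3 and higher in AOC11-LN than in AOC11. How many of the other genes with opposite differences ran this way was not counted. The 4 include Wnt4, Wnt5a and Lef1, which entered only through the lines in which they were high. Their lowest values rest on few fragments, about 16 for Wnt4 in AOC3-LN, and 14 for Wnt5a and 13 for Lef1 in AOC11. The difference between the mice was not tested, since each value compares 1 library with another.

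The list held all 4 TCF/LEF genes. In normalized log2 differences, Tcf7 was at -0.73 in mouse 3 and 0.62 in mouse 11, Lef1 at -0.37 and 0.42, Tcf7l1 at -0.42 and 0.94, and Tcf7l2 at -0.54 and 0.25. Among nuclear partners of beta-catenin, Bcl9l, which links it to Pygopus, was at -0.69 and 0.62, and the co-repressor Tle2 was at -0.23 and 0.33. Among ligands, Wnt4 was at -0.33 and 0.47, Wnt5a at -0.49 and 0.20 and Wnt9a at -0.87 and 0.65. The Dickkopf relative Dkk3 was at -1.60 and 0.40.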

How the results depend on the processing

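Between the mice, 15 of the 68 pathway genes and 3 of the 8 ligand and target genes were past the threshold, where 11.1% of all genes were. Among them Wnt4, Adgra2, Fzd5 and Tcf7l1 entered only through the lines in which they were high. With a pseudocount of 0.1 the counts were 24 and 5, and with a 1.5-fold threshold 28 of the pathway genes were past it. The share of all genes was not counted under these alternatives. A lower threshold or pseudocount can raise the calls of any gene, so a rise cannot be read as one of the pathway. Leaving out a line gave 15 to 18 pathway genes and 3 to 4 of the 8. The split of the 15 pathway calls was 5 higher in the AOC3 lines and 10 higher in the AOC11 lines, and 8 and 7 without AOC3-LN. Between AOC3-LN and AOC3, where 5.53% of all genes were called, 10 pathway genes became 17 with a pseudocount of 0.1 and 16 at 1.5-fold. Between AOC11-LN and AOC11, where 8.11% of all genes were called, 1 pathway gene became 6 and 13. Of the 8 genes, 0 became 1 (Lef1, 1.36) and 3. A limma fit without 1 line leaves a mouse with a single line, so its calls are not counted here. With all 4 lines limma called 0 pathway genes and 0.205% of all genes. Refitted to protein-coding genes only, it called 6 pathway genes and 2.25% of all protein-coding genes. The p-values of the fit to all genes, adjusted over protein-coding genes alone, called 0 pathway genes (Wnt10a at 0.105) and 20 of all 11380. The refit itself thus moved the p-values. Lef1 passed the threshold between the mice (1.18), and Wnt4 between AOC3-LN and AOC3 (-1.11), with a pseudocount of 0.1. Small differences between the mice changed sign when a line was left out, for Wnt7b (-0.02 without AOC3), Wnt7a (-0.01 without AOC11-LN) and Tcf7 (0.15 without AOC3-LN and 0.10 without AOC11-LN), as did that of Wnt7a between AOC3-LN and AOC3 (0.07 with scaling by the median). Other scalings and filters kept the counts of calls within 1.5 times. For Wnt10a, limma's adjusted p ranged from 0.0471 to 0.337 over the alternatives that kept every line. A replicate block, with site as a term so that lines are paired by mouse and by site, was added after seeing the data and called 0 pathway genes between the mice (Wnt10a at 0.0601) and 0 between sites. Of all 14165 genes it called 31 between the mice and 0.0141% between sites.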
